A study of Homo sapiens with 15 samples.

Results

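ADNP, NIPBL, ASXL3 and PHF21A encode nuclear proteins that act on chromatin, and mutations in each are known causes of developmental disorders with intellectual disability. The 4 genes were taken by symbol from a table of poly(A) site usage in HEK293T cells, where each has 1 row among 13056 genes, and all 4 had a value in every one of 15 libraries. They had been picked from values of this same table, so their levels, differences and calls are given here as a description. The p-values printed for them are no test of the 4 genes. HEK293T is a human embryonic kidney cell line. All libraries came from cells carrying a short hairpin RNA: the control hairpin group, shControl, had 3 libraries, while 2 libraries each came from shSF3B4, shU2AF2, shPABPN1, shPCBP2, shHDAC1 and shZNF384. The labels give shControl the genotype WT. No dose or duration of knockdown is given. The study profiled alternative polyadenylation after loss of its regulators, and its design text names 5 of the targets as such, with ZNF384 appearing only in the sample labels.

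The measurement is PDUI, an index of distal poly(A) site use given as a fraction. It estimates which part of the messenger RNA of a gene ends at the distal site. A value of 1 means distal use alone, and a value near 0 means mostly proximal use and a shorter transcript. PDUI says nothing of how much RNA a gene makes, so neither the strength of the knockdowns nor markers of the cell line could be checked. Read counts are absent from the table, so sequencing depth is unknown, and no counting interval can be given. The position of the proximal site is not in the table either.

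Most human genes can end their messenger RNA at more than 1 poly(A) site. The cleavage machinery commonly recognises an AATAAA hexamer, or its variant ATTAAA, a short way upstream of the cut. Choice of a proximal site in the last exon shortens the 3' untranslated region and leaves the protein unchanged, whereas an end inside the coding part or an intron alters what can be translated. PABPN1 is the nuclear poly(A) binding protein, SF3B4 is a subunit of the U2 snRNP and U2AF2 binds the polypyrimidine tract at the 3' splice site. PCBP2 binds C-rich RNA, HDAC1 is a histone deacetylase and ZNF384 is a zinc finger transcription factor.

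The 4 proteins have separate roles. ADNP is a homeodomain and zinc finger protein that works with the remodeller CHD4 and HP1 proteins. NIPBL loads cohesin, the ring complex that forms chromatin loops. ASXL3 belongs to the ASXL proteins, which activate the histone H2A deubiquitinase BAP1. PHF21A, also called BHC80, is a plant homeodomain finger protein of the LSD1-CoREST corepressor, which removes methyl groups from histone H3.

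Each row of the table names a transcript, and its last exon was located in GENCODE release 29 on GRCh38, the assembly also called hg38. The ADNP transcript ends in a last exon of 5597 bases at chr20:50888916-50894512 on the minus strand, longer than 94.1% of last exons in the table, with 2489 bases after the stop codon. The NIPBL last exon, 1887 bases at chr5:37064527-37066413 on the plus strand, has 1521 bases after the stop codon and stands at the 61.8th percentile of length. The ASXL3 last exon spans 8305 bases at chr18:33742888-33751192 on the plus strand, at the 98.2th percentile, with 4597 bases after the stop codon. The PHF21A last exon spans 6417 bases at chr11:45929323-45935739 on the minus strand, at the 95.9th percentile. The median last exon of the table had 1372 bases, so 3 of the 4 lie among the longest. The NIPBL and ASXL3 rows carry a later version of the transcript than GENCODE 29 does, so their last exons in the authors' annotation may differ. No last exon of the 4 overlaps an exon of another gene.

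The PHF21A row does not follow a protein-coding form. Its transcript is annotated as a retained intron, a non-coding form, and ends 3243 bases downstream of the end of the coding transcript ENST00000323180.10. The PHF21A values therefore describe use of an end beyond the one annotated for that coding transcript, within a last exon that also holds it. The coding transcripts ENST00000418153.6 and ENST00000525676.5 end in this exon too, 4158 and 4508 bases before the distal end. Below, the coding transcript of PHF21A means ENST00000323180.10, and which inner end PDUI counts as proximal is not known.

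Runs of 30 bases at or shortly upstream of annotated ends are shown for each gene, because they are the nearest view the annotation gives of the sites among which PDUI divides the transcripts. They are read 5' to 3' on the gene's strand from GENCODE 29 transcripts, and capitals mark the last AATAAA in the 40 bases up to the end or, where there is none, the last ATTAAA. The run at the distal ASXL3 end also holds an unmarked ATTAAA nearer the end.
ADNP, end 132 bases before the distal end: tctcAATAAAagccattttaaaagaatatt
ADNP, ends 1420 and 1433 bases before the distal end: tctaAATAAAttgctgtattgtgcttaatg
NIPBL, end 911 bases before the distal end: ctgcAATAAAtttttttacttctctttgtt
NIPBL, distal end: gtgacacctATTAAAccactatgaaaataa
ASXL3, distal end: attctggagaaAATAAAgaaattaaacatg
ASXL3, ends 7631 and 7611 bases before the distal end: ttttAATAAAaattctgtccctgtatctgt
PHF21A, end of the coding transcript: ttctATTAAAaaggtgtcagaactggagaa
PHF21A, distal end: cattttactaaataaagccaAATAAAgcct

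In the order shown, the runs lie at chr20:50889044-50889073 and chr20:50890347-50890376 (minus strand), chr5:37065474-37065503 and chr5:37066384-37066413 (plus strand), chr18:33751163-33751192 and chr18:33743538-33743567 (plus strand), and chr11:45932562-45932591 and chr11:45929323-45929352 (minus strand). The ADNP transcript of the table itself has neither hexamer in its last 40 bases. Over all matched transcripts of the table, 58.8% had AATAAA in their last 40 bases and 72.6% had AATAAA or ATTAAA, read on the transcript strand alone. The inner ASXL3 ends belong to transcripts annotated for nonsense-mediated decay and lie inside the coding part, so the annotation offers no end within the long untranslated part other than the distal one. The inner NIPBL end belongs to a retained-intron form. A hexamer match is a description of the sequence and does not show that a site is used. Across the whole last exon, AATAAA and ATTAAA occurred 5 and 3 times in ADNP, 5 and 2 times in NIPBL, 3 and 6 times in ASXL3, and 3 and 2 times in PHF21A.

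**Figure D1:**
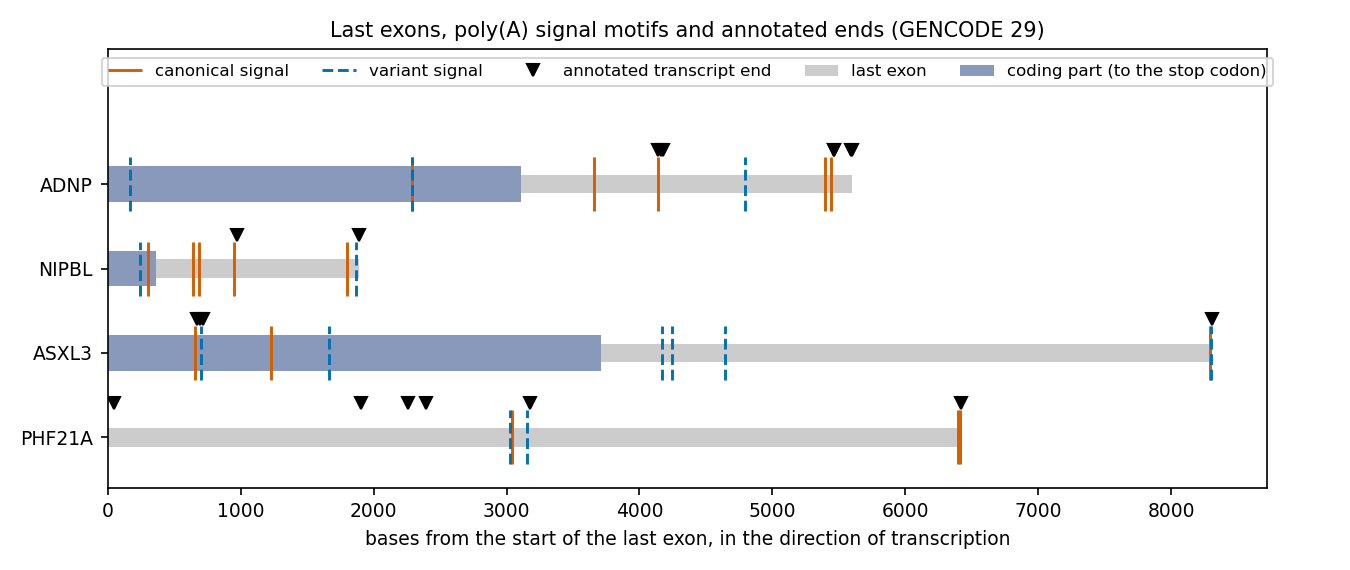
Last exons of the 4 transcripts drawn to scale, in bases from the exon start in the direction of transcription (x axis), with the coding part as thick bars, annotated transcript ends as triangles and hexamer matches as lines (solid for AATAAA, dashed for ATTAAA). ASXL3 has the longest exon, 8305 bases, with its inner ends in the coding part, and the PHF21A exon has no coding part in the transcript of the table.

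Some facts of the whole table touch every comparison. Between 1.37% and 4.49% of genes lacked a value in a library, and mean PDUI over the 11353 complete genes ran from 0.522 to 0.585, lowest in shControl replicate 1. Only the shControl library names end in the suffix nuc, and the protocol in the labels mentions nuclear RNA as well as total RNA. What the suffix marks is not stated, so it cannot be told apart from the knockdowns in any comparison with shControl. Nothing states that replicates came from separate cultures, so p-values measure only the spread between these samples. The 2 shSF3B4 libraries are called a and b, because their titles and library names number them differently.

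The 4 genes started from different control levels. Mean PDUI in shControl was 0.2 ± 0.0173 for NIPBL, 0.277 ± 0.0577 for ASXL3, 0.473 ± 0.0208 for ADNP and 0.58 ± 0.0557 for PHF21A (SD, n = 3). They also differed in how far they moved. Over the 15 libraries PDUI spanned 0.1 in NIPBL, 0.18 in ADNP, 0.55 in ASXL3 and 0.67 in PHF21A. The median span of all genes was 0.22, which put NIPBL at the 17.1th percentile and PHF21A at the 98.4th. The spread within groups was also lowest in NIPBL, with a pooled SD of 0.0125 in NIPBL, 0.0249 in ADNP, 0.064 in PHF21A and 0.0782 in ASXL3, against a median of 0.0511 over all genes.

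**Figure D2:**
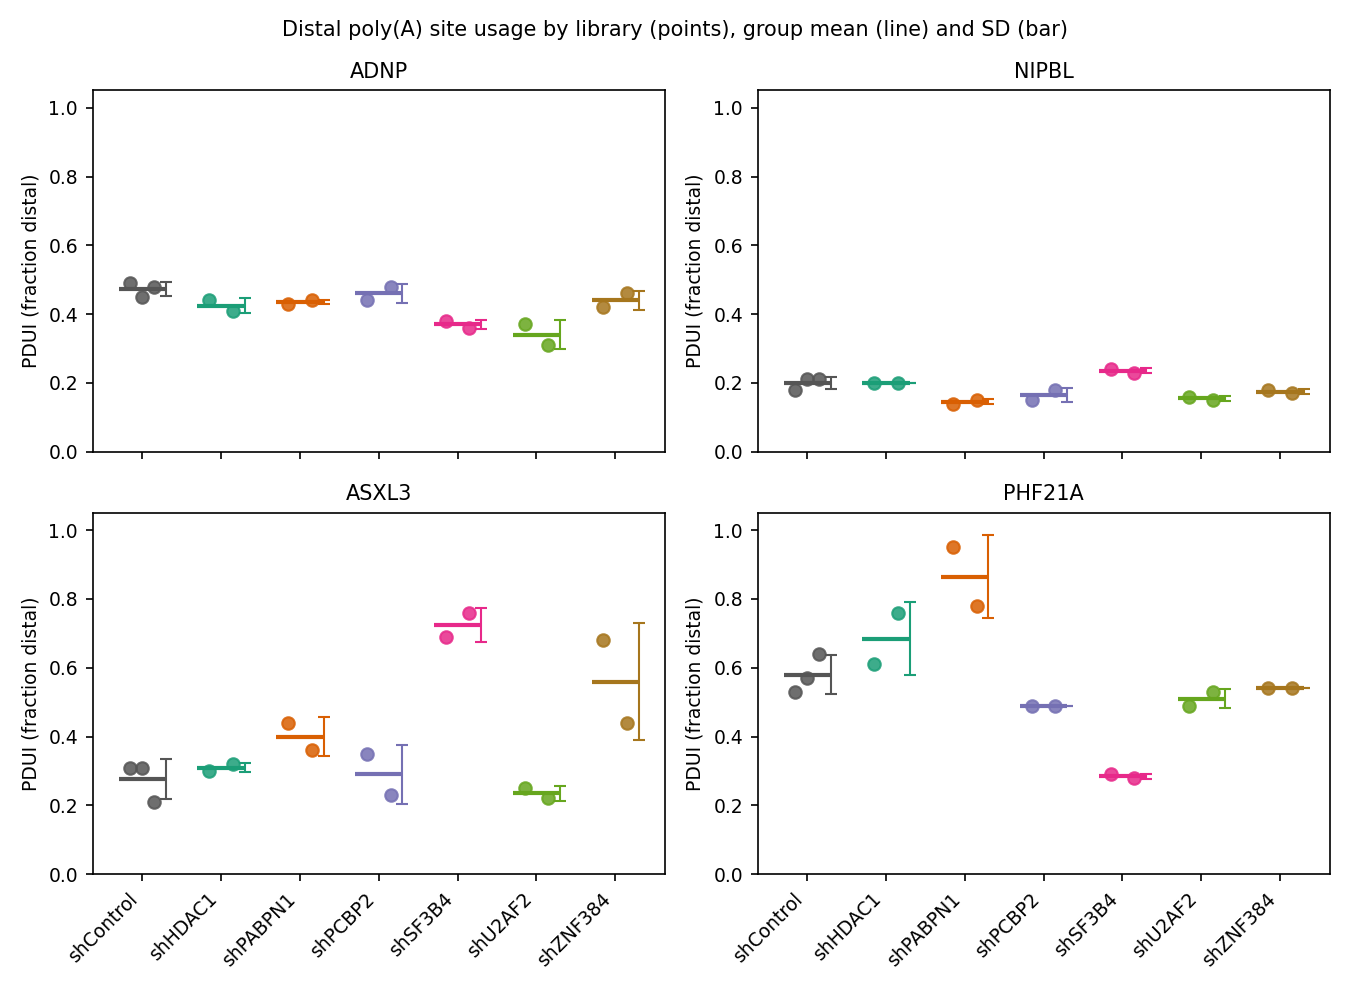
PDUI (fraction, y axis) of the 4 genes in every library by group (x axis): points are libraries, lines are group means and bars are SD (n = 3 for shControl, n = 2 for each knockdown). ASXL3 stands high and PHF21A low in shSF3B4, PHF21A stands high in shPABPN1, and NIPBL stays between 0.14 and 0.24 in every library.

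Differences from shControl were fitted with limma over all genes and 15 libraries, and a difference was called at a Benjamini-Hochberg adjusted p under 0.05. Of the 24 comparisons of the 4 genes, 7 were called, 2 higher and 5 lower, where 3.34% of all 74181 comparisons in the table were called. Both knockdown libraries lay outside the range of the 3 shControl libraries in 13 of the 24 comparisons, 5 higher and 8 lower, where 23.6% did so in the table. Since these values chose the genes, nothing is read from either count. Centring the libraries on their medians left 4 of the calls, and a fit of only the 2 groups compared left 1, ASXL3 in shSF3B4. All 6 comparisons share the same shControl libraries.

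The calls lay in 3 of the 6 knockdowns. No comparison with shHDAC1, shPCBP2 or shZNF384 was called in any of the 4 genes, where 0.0243%, 1.17% and 1.5% of all tested genes were called. In shSF3B4 3 of the 4 genes were called (background 5.42%), in shPABPN1 2 (background 4.72%) and in shU2AF2 2 (background 7.27%). The 2 calls in shU2AF2, ADNP and NIPBL, were lower (background 1.39%). Those in shPABPN1 were split, with PHF21A higher (background 3.99%) and NIPBL lower (background 0.725%). The genes did not move alike within a knockdown. In shSF3B4, ASXL3 was called higher (background 4.26%) while ADNP and PHF21A were called lower (background 1.16%).

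**Figure D3:**
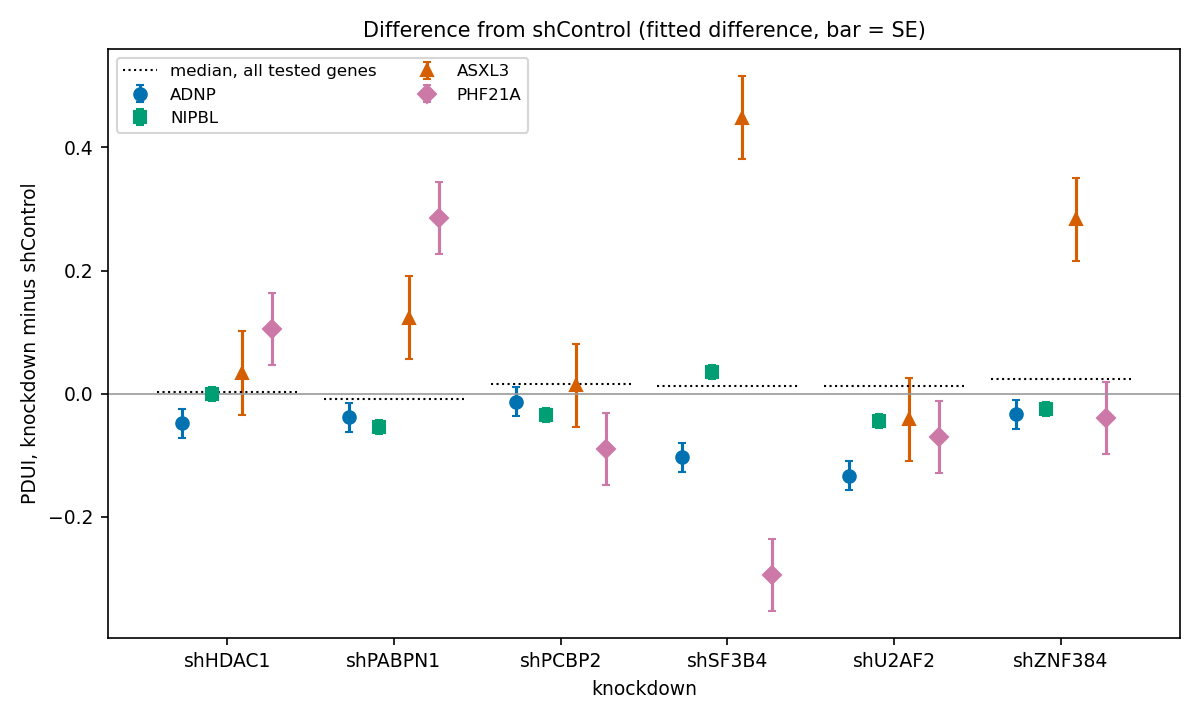
Fitted PDUI difference from shControl (y axis, fraction) for the 4 genes in the 6 knockdowns (x axis): symbols are differences, bars are SE, and dotted lines are the median of all tested genes. The ASXL3 difference in shSF3B4 is 0.448, the PHF21A differences are -0.295 in shSF3B4 and 0.285 in shPABPN1, and every NIPBL difference lies within 0.055 of 0.

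ADNP, the partner of CHD4 and HP1, stood lower in the 2 knockdowns of 3' splice site factors. In shControl its PDUI was 0.49, 0.45 and 0.48. It was 0.37 and 0.31 in shU2AF2 and 0.38 and 0.36 in shSF3B4. Both groups lay below the shControl range, and their own ranges overlapped. Over the table, 9.83% and 8.3% of tested genes had both libraries below the shControl range in shU2AF2 and shSF3B4. Calls lower in both knockdowns were made in 47 genes, 33.3% of those lower in shSF3B4 and 27.3% of those lower in shU2AF2. The fitted differences were -0.133 in shU2AF2 and -0.103 in shSF3B4 (SE 0.0237 each), where the median of all genes was 0.0117 in both.

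The other ADNP libraries lay closer to the control. Values were 0.44 and 0.41 in shHDAC1, 0.43 and 0.44 in shPABPN1, 0.44 and 0.48 in shPCBP2, and 0.42 and 0.46 in shZNF384. Neither shHDAC1 nor shPABPN1 overlapped the shControl range, with differences of -0.0483 and -0.0383 (SE 0.0237 each) that were not called, and 7.07% and 13.3% of all genes lay below the control range there. The lowest ADNP means were 0.34 ± 0.0424 in shU2AF2, 0.37 ± 0.0141 in shSF3B4 and 0.425 ± 0.0212 in shHDAC1 (SD, n = 2).

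The 2 ADNP calls changed with the libraries included, which describes these values only. That in shU2AF2 was lost without shU2AF2 replicate 2 (limma adjusted p = 0.084, difference -0.103), and its adjusted p over all alternatives ran from 0.00735 to 0.133. That in shSF3B4 was lost without shControl replicate 1 or 3 or either shSF3B4 library (limma adjusted p from 0.0999 to 0.203), and also without a library of shHDAC1 or shPABPN1. Its difference on the PDUI scale stayed between -0.132 and -0.0933.

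NIPBL, the cohesin loader, used its distal site least, and none of its differences passed 0.055 in size. Its PDUI was 0.18, 0.21 and 0.21 in shControl. It was 0.14 and 0.15 in shPABPN1 and 0.16 and 0.15 in shU2AF2, both below the control range. In shSF3B4 it was 0.24 and 0.23, above all 13 other libraries, none of which passed 0.21. Over the table, 17.1% of tested genes had both shSF3B4 libraries above the shControl range, and 2.87% of complete genes had them above all other libraries.

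NIPBL was 0.2 in both shHDAC1 libraries, the control mean. It was 0.15 and 0.18 in shPCBP2 and 0.18 and 0.17 in shZNF384, where the ranges reached the lowest shControl library. The fitted differences were -0.055 in shPABPN1, -0.045 in shU2AF2 and 0.035 in shSF3B4 (SE 0.0114 each), in a table written in steps of 0.01. The first 2 were called and the third was not. NIPBL means were 0.2 ± 0 in shHDAC1 and 0.235 ± 0.00707 in shSF3B4 (SD, n = 2).

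Both NIPBL calls changed with the libraries included. Without 1 compared library, the differences stayed between -0.065 and -0.05 in shPABPN1 and between -0.055 and -0.04 in shU2AF2. The call in shPABPN1 was lost without shControl replicate 2 or 3 or either shPABPN1 library (limma adjusted p from 0.0728 to 0.165). The call in shU2AF2 was lost without shControl replicate 2 or 3 or either shU2AF2 library (limma adjusted p from 0.116 to 0.251), and also without a library of shHDAC1, shPABPN1, shSF3B4 or shZNF384. With libraries centred on their medians neither was called, at a limma adjusted p of 0.403 and 0.0629, and the shSF3B4 difference shrank to 0.0067.

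ASXL3, a cofactor of BAP1, had the largest difference of the 4 genes. Its PDUI was 0.31, 0.31 and 0.21 in shControl and 0.69 and 0.76 in shSF3B4. Both shSF3B4 libraries lay above all 13 others, the closest being shZNF384 replicate 1 at 0.68. The mean went from 0.277 ± 0.0577 (SD, n = 3) to 0.725 ± 0.0495 (SD, n = 2), a fitted difference of 0.448 (SE 0.0677). This was called, and over the alternatives the difference on the PDUI scale stayed between 0.413 and 0.483. The gene was chosen from these same values, so this is a description and no support.

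The shZNF384 libraries were the least alike for ASXL3, at 0.68 and 0.44, a mean of 0.56 ± 0.17 (SD, n = 2). Both exceeded every shControl library, as did those of shPABPN1 at 0.44 and 0.36, where 20.8% and 12.7% of all genes stood clear on the higher side. The differences of 0.283 and 0.123 (SE 0.0677) were not called. The shZNF384 difference was 0.163 without replicate 1 and 0.403 without replicate 2. The library at 0.68 therefore decides its size.

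The libraries of the remaining knockdowns overlapped the control range of ASXL3. Values were 0.30 and 0.32 in shHDAC1, 0.35 and 0.23 in shPCBP2, and 0.25 and 0.22 in shU2AF2. The shU2AF2 libraries thus sat within the control range, far below those of shSF3B4. ASXL3 means were 0.31 ± 0.0141 in shHDAC1 and 0.4 ± 0.0566 in shPABPN1 (SD, n = 2).

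PHF21A, the LSD1-CoREST subunit, stood at opposite ends of its range in 2 knockdowns. Its PDUI was 0.53, 0.57 and 0.64 in shControl. It was 0.95 and 0.78 in shPABPN1, above all 13 other libraries, and 0.29 and 0.28 in shSF3B4, below all 13 others, none of which was under 0.49. Over the table, 2.28% of complete genes had both shPABPN1 libraries above all others and 2.08% had both shSF3B4 libraries below all others. Calls higher in shPABPN1 and lower in shSF3B4 were made in 33 genes. These were 6.74% of those higher in shPABPN1 and 23.4% of those lower in shSF3B4. The fitted differences were 0.285 in shPABPN1 and -0.295 in shSF3B4 (SE 0.0583 each).

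The other PHF21A groups lay between these ends. Values were 0.61 and 0.76 in shHDAC1, 0.49 in both shPCBP2 libraries, 0.49 and 0.53 in shU2AF2, and 0.54 in both shZNF384 libraries. Of these only shPCBP2 lay clear of the shControl range, on the lower side, where 5.27% of all genes did. PHF21A means were 0.285 ± 0.00707 in shSF3B4, 0.49 ± 0 in shPCBP2, 0.685 ± 0.106 in shHDAC1 and 0.865 ± 0.12 in shPABPN1 (SD, n = 2).

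The PHF21A calls depended on the libraries included. The call in shPABPN1 was lost without shControl replicate 2 (limma adjusted p = 0.0721) or shPABPN1 replicate 1 (limma adjusted p = 0.167), the library at 0.95, with a difference of 0.2 without the latter. The call in shSF3B4 was lost without shControl replicate 2 or 3 or either shSF3B4 library (limma adjusted p from 0.0516 to 0.112), and on the logit scale (limma adjusted p = 0.153), while its difference on the PDUI scale stayed between -0.323 and -0.265.

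The patterns of the 4 genes over the 15 libraries were weakly to moderately related. Pearson correlations between pairs ran from -0.541 for NIPBL and PHF21A to 0.425 for NIPBL and ASXL3, with Spearman values of -0.281 and 0.122. These points share libraries and groups, so the values only describe these samples. For each gene the 3 genes of most similar PDUI were then taken among 7351 genes with a value in all 15 libraries and an SD of at least 0.05.

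ADNP was most like UVRAG, an autophagy and endosome protein (Pearson r = 0.914), UBE2H, a ubiquitin-conjugating enzyme (r = 0.902), and MAP3K7, the kinase TAK1 (r = 0.885). Each of these had its lowest means in shSF3B4 and shU2AF2, for UVRAG 0.165 and 0.125 against 0.357 in shControl. NIPBL was most like the homeobox gene HOXD10 (r = 0.932), AC017002.6 (r = 0.914) and SIMC1 (r = 0.903). HOXD10 went from 0.373 in shControl to 0.465 in shSF3B4 and 0.275 in shU2AF2. The last exon of AC017002.6 overlaps MIR4435-2HG, so its value is uncertain.

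Among the genes most like ASXL3 were FOXK1, a forkhead transcription factor (r = 0.851), and ATMIN, a cofactor of the kinase ATM (r = 0.843). ATMIN had a mean of 0.22 in shControl and 0.39 in shSF3B4. PHF21A was most like TM9SF3 (r = 0.873), WWC1, known as KIBRA (r = 0.848), and the ubiquitin ligase ARIH2 (r = 0.819), whose last exon overlaps 3 other genes. TM9SF3 stood at 0.317 in shControl, 0.47 in shPABPN1 and 0.195 in shSF3B4, the same 2 ends as PHF21A. These correlations are the highest of many over 15 libraries and carry no test. The choice of genes depended on the measure: ranked by Spearman correlation, 1 of the 3 genes was shared for ADNP, 2 for NIPBL, 1 for ASXL3 and 0 for PHF21A. With libraries centred on their medians, 3 were shared for ADNP, 0 for NIPBL, 2 for ASXL3 and 2 for PHF21A.

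Related chromatin genes were examined through 5 lists, which together hold 196 other genes, 169 of them in the table. Of the lists 4 cover complexes around each gene, and the last holds other chromatin genes of neurodevelopmental disorders. That last list held 10 of the calls given below for shU2AF2 and 7 of those for shPABPN1. Of those tested, 16 of 167 were called in shSF3B4, 9 higher and 7 lower (9.58%, all genes 5.42%), and 25 of 168 in shU2AF2, 16 higher and 9 lower (14.9%, all genes 7.27%). In shPABPN1 9 of 168 were called, 4 higher and 5 lower (5.36%, all genes 4.72%), in shZNF384 5 of 168, all higher (2.98%, all genes 1.5%), and in shPCBP2 1 of 167, higher (0.599%, all genes 1.17%). None of 168 was called in shHDAC1 by limma, where 11 had an unadjusted p under 0.05. Median differences stayed close to those of all genes, at 0.0167 against 0.0117 in shSF3B4, 0.00833 against 0.0117 in shU2AF2, -0.0175 against -0.00933 in shPABPN1 and 0.0342 against 0.0233 in shZNF384.

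Centring the libraries on their medians turned several of these splits. Calls among the list genes became 1 higher and 5 lower in shSF3B4, 8 and 7 in shU2AF2, and 3 and 1 in shPABPN1, with none left in shZNF384. Over all genes the split went from 520 higher and 141 lower to 111 and 99 in shSF3B4, and from 727 and 172 to 259 and 132 in shU2AF2. Leaving out shControl replicate 1, the library of lowest mean PDUI, raised the shPABPN1 calls among list genes to 22, of which 16 were lower. Left aside here are the calls of SMARCD1, BMI1, MED13 and SRCAP in shU2AF2, DPF2 in shSF3B4, and SMARCA5 in shPABPN1 and shSF3B4. Among the other calls described for single list genes, centring ended those of DPF2, HDAC2 and SMC1A in shU2AF2. It also ended those of ZMYM2, CBX8 and PCGF5 in shSF3B4, BMI1 in shPABPN1 and every one in shPCBP2 and shZNF384. With only the 2 groups compared in the fit, fewer of these other calls were kept. They were those of BICRAL and SRCAP in shSF3B4 and of HDAC2, SMC1A, PCGF5 and SMARCA5 in shU2AF2.

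**Figure D4:**
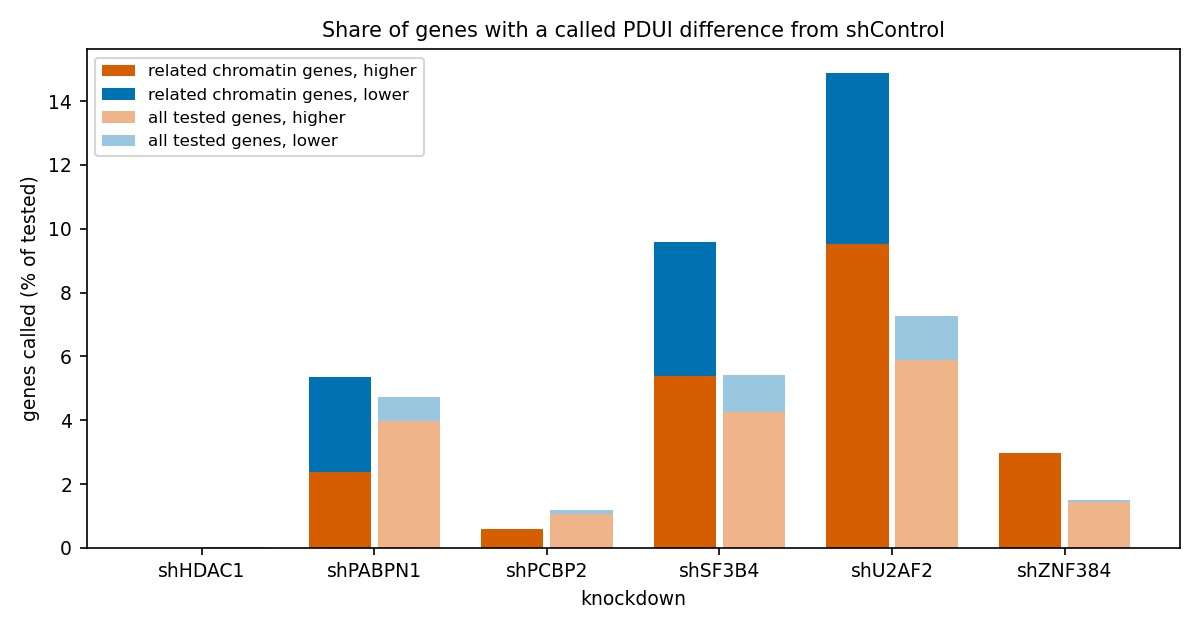
Share of tested genes with a called PDUI difference from shControl (y axis, %) per knockdown (x axis), for the 5 lists together (dark bars) and for all tested genes (pale bars), split into higher and lower. The list genes reach 14.9% in shU2AF2 and 9.58% in shSF3B4, against 7.27% and 5.42% of all genes.

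Around ADNP, the list held ChAHP, NuRD and BAF remodelling subunits, with 39 genes tested. In shSF3B4 3 rose and 3 fell (15.4%, all genes 5.42%), and in shU2AF2 5 rose and 2 fell (17.95%, all genes 7.27%). Median differences were 0.0167 and 0.0095. BICRAL, a subunit of the non-canonical BAF complex, was at 1, the highest possible value, in every library outside shSF3B4. It fell to 0.66 and 0.72 in shSF3B4 (difference -0.31, SE 0.0132, limma adjusted p = 8e-06), the only group in which its libraries differed. The SE and p-value pool in the groups held at 1, so they do not measure the spread of BICRAL within shSF3B4. ARID2, a PBAF subunit, fell from 0.603 ± 0.0473 (SD, n = 3) to 0.32 ± 0.0424 (SD, n = 2) in shSF3B4 (limma adjusted p = 0.00579), a call lost without shSF3B4 library b (limma adjusted p = 0.0602). GATAD2A, a NuRD subunit, rose from 0.157 ± 0.0231 to 0.26 ± 0.0283 in shU2AF2 (limma adjusted p = 0.00269).

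DPF2, a BAF subunit, rose in shU2AF2 from 0.0567 ± 0.0153 (SD, n = 3) to 0.105 ± 0.00707 (SD, n = 2), with a limma adjusted p of 0.00703 that became 0.0639 without shU2AF2 replicate 1. DPF2 was also called higher in shSF3B4, at 0.095 ± 0.00707 (limma adjusted p = 0.0294). SMARCD1, another BAF subunit, was called higher in shU2AF2, at 0.955 ± 0.0636 (limma adjusted p = 0.0264). SMARCD1 was also the 1 list gene here called in shZNF384 (2.56%, all genes 1.5%). It was at 0.99 in both libraries against 0.59, 0.75 and 0.77 in shControl. Its limma adjusted p of 0.0459 passed 0.05 whichever of the 5 libraries compared was left out, reaching 0.218.

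Around NIPBL, the list held cohesin subunits, the loader and regulators. Of 19 genes tested 1 rose in shU2AF2 (5.26%, all genes 7.27%) and in shZNF384 (5.26%, all genes 1.5%). In shHDAC1 and shPABPN1 0 of 19 were called and in shPCBP2 and shSF3B4 0 of 18, where at most 2 had an unadjusted limma p under 0.05. Over all genes, 0.0243%, 4.72%, 1.17% and 5.42% were called there, in that order. The 1 gene was SMC1A, a core cohesin subunit, at 0.10, 0.11 and 0.09 in shControl, 0.21 in both shU2AF2 libraries (limma adjusted p = 1.1e-05) and 0.14 in both shZNF384 libraries (limma adjusted p = 0.0183). The rise in shU2AF2, of 0.105 to 0.115 without 1 compared library, was called whichever shControl library was left out. That in shZNF384 was lost without shControl replicate 3 or either shZNF384 library (limma adjusted p from 0.0504 to 0.104), and turned to -0.0083 with libraries centred on their medians.

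Around ASXL3, the list of PR-DUB and Polycomb genes had 38 tested. In shSF3B4 3 rose and 1 fell (10.5%, all genes 5.42%), and in shU2AF2 2 rose and 2 fell (10.5%, all genes 7.27%). In shPABPN1 1 rose and 1 fell (5.26%, all genes 4.72%). In shZNF384 2 rose (5.26%, all genes 1.5%) and in shPCBP2 1 rose (2.63%, all genes 1.17%). FOXK1, which binds BAP1, rose from 0.403 ± 0.0208 (SD, n = 3) to 0.645 ± 0.0354 (SD, n = 2) in shSF3B4 (limma adjusted p = 0.00266), and CBX8, a Polycomb chromodomain protein, rose there from 0.0933 ± 0.0115 to 0.18 ± 0.0283 (limma adjusted p = 0.00325). CBX6, of the same family, reached 1 in both libraries of shU2AF2 and of shZNF384, from 0.797 ± 0.0503. The shZNF384 call of CBX6 was lost without shControl replicate 3 or either shZNF384 library (limma adjusted p from 0.0614 to 0.112).

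PCGF5, a subunit of a variant Polycomb repressive complex, was called higher in 5 knockdowns, more than any other list gene. It was 0.73, 0.69 and 0.66 in shControl, 1 in every library of shPABPN1, shPCBP2, shU2AF2 and shZNF384, and 0.86 and 1 in shSF3B4. The call in shSF3B4 was lost without shControl replicate 2 or 3 or shSF3B4 library b (limma adjusted p up to 0.182). The call in shU2AF2 was kept whichever shControl library was left out, and that in shPABPN1 was lost without shPABPN1 replicate 1. Those in shPCBP2 and shZNF384 were lost without any of the compared libraries. The PCGF5 differences in these knockdowns stayed between 0.29 and 0.325 in such fits. BMI1, a core Polycomb protein, was at 0.83 ± 0.0458 (SD, n = 3) in shControl. It was called lower in shU2AF2, at 0.685 ± 0.00707 (SD, n = 2, limma adjusted p = 0.0149). BMI1 also fell to 0.71 ± 0.0283 (SD, n = 2) in shPABPN1 (limma adjusted p = 0.0495). This call held only without shControl replicate 2 among the fits without 1 library (limma adjusted p up to 0.261), and its last exon overlaps the readthrough gene COMMD3-BMI1.

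Around PHF21A, the LSD1-CoREST list had 17 genes tested. Of these 1 fell in shSF3B4 (5.88%, all genes 5.42%), and 2 rose and 1 fell in shU2AF2 (17.65%, all genes 7.27%). The first was ZMYM2, a zinc finger subunit, at 0.2 ± 0.01 (SD, n = 3) in shControl and 0.14 ± 0.0141 (SD, n = 2) in shSF3B4 (limma adjusted p = 0.0147, and 0.115 without shSF3B4 library a). Its relative ZMYM4 fell in shU2AF2 from 0.777 ± 0.0757 to 0.505 ± 0.00707 (limma adjusted p = 0.00657). HDAC2, a deacetylase of the complex, stood at 0.01 in 13 libraries and at 0.05 in both shU2AF2 libraries (limma adjusted p = 1e-05). Centring ended that call (limma adjusted p = 0.73). HDAC2 values lay near the floor and did not vary within any group, so the smaller p-value does not measure a spread of this gene.

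Other chromatin genes of neurodevelopmental disorders made up the last list, with 55 tested. In shU2AF2 6 rose and 4 fell (18.2%, all genes 7.27%), and in shPABPN1 3 rose and 4 fell (12.7%, all genes 4.72%). In shSF3B4 3 rose and 2 fell (9.09%, all genes 5.42%), and in shZNF384 1 rose (1.82%, all genes 1.5%). MED13, which belongs to the Mediator kinase module, decreased from 0.993 ± 0.0115 (SD, n = 3) to 0.56 ± 0.0424 (SD, n = 2) in shPABPN1 (limma adjusted p = 0.00116). It was also called lower in shU2AF2, at 0.71 ± 0.0141 (limma adjusted p = 0.00703). MED13 was at 1, 0.98 and 1 in shControl, 0.79 and 0.88 in shHDAC1, and 0.83 and 0.86 in shPCBP2. It was at 0.87 and 0.73 in shSF3B4 and at 0.88 and 1 in shZNF384.

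NSD1, the histone methyltransferase of Sotos syndrome, rose from 0.553 ± 0.0351 (SD, n = 3) to 0.815 ± 0.0212 (SD, n = 2) in shU2AF2 (limma adjusted p = 0.00082). SMARCA5, a remodelling ATPase, rose there from 0.0667 ± 0.00577 to 0.195 ± 0.00707 (limma adjusted p = 8e-06). SRCAP, another remodelling ATPase, fell in shSF3B4 from 0.233 ± 0.0115 to 0.14 ± 0 (limma adjusted p = 0.00263). These 3 calls were kept whichever shControl library was left out. Over the 5 fits without 1 of the compared libraries, differences ran from 0.245 to 0.28, 0.123 to 0.133 and -0.1 to -0.09, in that order. SMARCA5 was also called higher in shPABPN1, at 0.11 ± 0.0141, and in shSF3B4, at 0.1 ± 0 (SD, n = 2). SRCAP was also called lower in shU2AF2, at 0.15 ± 0.0141 (limma adjusted p = 0.00359). The last exons of SMARCA5 and SRCAP overlap other genes, so reads of those could enter their values.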

How the data were processed

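The deposited table gives PDUI as a fraction, computed by the authors per transcript and library on hg38, per the submitters' processing notes. The sources used here do not give the aligner, the PDUI program or the annotation. Per the labels' protocols, polyadenylated RNA was captured with oligo(dT) and a NEBNext Ultra kit made the libraries. Strand use is not stated.

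Groups came from sample titles. The deposited values were fitted unchanged with limma 3.58.1 (R 4.3.3), with 1 mean per group, all 15 libraries, and eBayes with a trend (8 residual and 1.06 prior degrees of freedom). A gene was tested with values in both knockdown libraries and at least 2 shControl libraries. Tests were two-sided, adjusted by Benjamini-Hochberg within each comparison. The fit was tested on simulated data.

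Members, lists and alternatives were chosen with earlier results of these data known. Named list genes are up to 2 per list and knockdown, called, with libraries beyond the shControl range and of smallest p. Some genes that the rules select are not reported here. Of the transcripts, 97.3% matched GENCODE 29, and 54.9% had the same version. The alternatives changed scaling, scale, variance model, samples, gene filter and threshold.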

Additional observations from a re-analysis of the deposited data

How the results depend on the processing

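Against 7 calls in the 4 genes with all libraries, 3 to 7 were made when 1 library was left out. There were 4 with libraries centred on their medians and 1 with only the compared groups in the fit. Differences between replicates 1 and 2, numbered by the table header, were nearly uncorrelated between groups (-0.036 to 0.047 over 21 pairs of groups). Pairing that involves shControl replicate 3 or the library-name numbers of shSF3B4 was not checked. With the replicate block there were 2 calls, and 1 with shSF3B4 numbered by the table header, a setting chosen after seeing the data. No called difference of the 4 genes reversed. In the order shHDAC1, shPABPN1, shPCBP2, shSF3B4, shU2AF2 and shZNF384, genes called were 3, 579, 145, 661, 899 and 188. They became 0, 362, 4, 210, 391 and 0 with centring. Leaving out 1 library gave 4 to 51, 343 to 1048, 46 to 119, 429 to 536, 573 to 788 and 22 to 140. Fitting only the compared groups gave 0, 2, 186, 327 and 5 from shPABPN1 to shZNF384. A difference of at least 0.1 gave 355, 94, 410, 593 and 115. The replicate block gave 337 in shPABPN1, 16 in shPCBP2 and 27 in shZNF384, and 9, 288, 16, 414 and 8 in shHDAC1, shPABPN1, shPCBP2, shSF3B4 and shZNF384 with header numbers. Untrended robust variances gave 94 in shPCBP2 and 83 in shZNF384. Leaving out genes without spread gave 0 in shHDAC1 and 120 in shZNF384, and the logit scale gave 13 in shHDAC1. Among list genes, centring gave 4, 0, 6, 15 and 0 from shPABPN1 to shZNF384, and the compared groups alone gave 0, 0, 2, 6 and 0. The block gave 5, 0 and 1 in shPABPN1, shPCBP2 and shZNF384, and 5, 0, 8 and 0 with header numbers in these and shSF3B4 (8). A difference of at least 0.1 gave 8 in shSF3B4, logit gave 2 in shPCBP2 and untrended variances gave 3 in shZNF384. Without 1 library the list counts ran over 0 to 0, 5 to 22, 0 to 2, 10 to 16, 14 to 28 and 0 to 4. SMC1A in shZNF384 turned to -0.0083 with centring. The cause of these changes was not tested, and no depth is known.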

Other observations

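Close relatives and a partner of the 4 genes were looked at after their values had been seen. ASXL1, a paralog of ASXL3, was at 0.617 ± 0.0231 (SD, n = 3) in shControl, 0.5 ± 0.0283 in shSF3B4 and 0.48 ± 0.0141 in shU2AF2 (SD, n = 2). Its libraries there, from 0.47 to 0.52, lay below the lowest shControl value of 0.59, whereas ASXL3 stood high in shSF3B4. The ASXL1 differences were -0.117 and -0.137 (SE 0.0286), with limma adjusted p of 0.0499 and 0.0197. Both calls held only without shControl replicate 1 among the 5 fits that left out 1 library (limma adjusted p up to 0.299 and 0.134), and neither held with libraries centred on their medians (0.104 and 0.0532).

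ASXL2 was at 0.217 ± 0.0115 in shControl (SD, n = 3) and between 0.245 and 0.3 in the knockdown means, with no difference called. Both its libraries lay above the shControl range of 0.21 to 0.23 in every knockdown but shU2AF2. Of all genes, 8.18% did so in shHDAC1, 12.7% in shPABPN1, 16.4% in shPCBP2, 17.1% in shSF3B4 and 20.8% in shZNF384. MAU2, the partner of NIPBL in loading cohesin, had a mean of 0.467 ± 0.0513 in shControl (SD, n = 3) and between 0.42 and 0.49 in the knockdowns, with none called. PHF21B, the paralog of PHF21A, was at 0.777 ± 0.0252 in shControl (SD, n = 3), 0.82 ± 0.0707 in shPABPN1 and 0.83 ± 0.0141 in shSF3B4 (SD, n = 2). The largest PHF21B difference was 0.193 in shPCBP2, whose libraries reached 0.94 and 1, and it was not called (limma adjusted p = 0.0905).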
